A study of Mus musculus with 13 samples.

Results

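Glycolysis and the transcriptional response to low oxygen were followed through 35 genes chosen by symbol: the glucose transporters, the enzymes from hexokinase to lactate dehydrogenase, the enzymes that set the fate of pyruvate, the hypoxia factor subunit Hif1a, its prolyl hydroxylases and a set of hypoxia-induced genes. Of these, 32 had a probe named for them, with 49 probes in all among the 25697 probes of an Illumina mouse bead array. No named probe was found for Gpi1, Eno1 or Ldhb, which are not analysed here. The probes of Bnip3 and Slc16a1 were not well above background on any array, so 30 genes were tested among 10923 genes in all. A probe counted as detected on an array where its detection p was under 0.01, and 15 of the 30 genes were detected on all 13 arrays. Pfkfb3 and Slc16a3 entered the tests through 1 array each, and Adm through 3.

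All samples carried the strain label C3H, and no treatment, sort or age was given. Neural stem cells kept in vitro (NSC), induced neural stem cells made from mouse embryonic fibroblasts (iNSC) and neural progenitors differentiated from embryonic stem cells (ESC NPC) had 3 arrays each, labelled as clones 1 to 3. Mouse embryonic fibroblasts (MEF), embryonic stem cells (ESC), iNSC taken after transplantation into adult mouse brain (iNSC-In vivo) and in vivo NSC (NSC-In vivo) had 1 array each. The iNSC-In vivo label gives an interval of 14 since transplantation without its unit, and the NSC-In vivo label mentions no transplantation. The labels name neither the factors used for induction nor the purification of the in vivo cells. Nothing beyond the clone number says that the clones came from separate cultures or animals, so the p-values measure the spread between these arrays, which may be technical.

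In glycolysis, glucose enters through facilitative transporters, is trapped by hexokinase and committed by phosphofructokinase, and ends as pyruvate, which lactate dehydrogenase reduces or mitochondria oxidise. Most steps are served by isoforms from separate genes, and their balance differs between pluripotent cells, proliferating progenitors and mature brain cells. When oxygen is low, prolyl hydroxylases no longer mark HIF for degradation, and the stabilised factor binds a short core motif near its targets, which include most of the genes studied here. HIF is regulated mainly through protein stability, which transcript arrays do not measure.

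The promoters shown here belong to the 6 of these genes that stood at least 2-fold higher in NSC clone 1 than in both other NSC clones, a pattern described below, and were chosen after those values were seen. Each sequence is the 250 bases before the first-listed RefSeq start in GRCm38.p6, 5′ to 3′ on the strand of the gene, with capitals marking ACGTG or GCGTG on either strand, the HIF core motif and its reverse complements CACGT and CACGC. The windows lie at chr17:46032378-46032627, minus strand (Vegfa) and at chr10:78009808-78010057, minus strand (Pfkl) and at chr6:82774455-82774704, minus strand (Hk2). The others lie at chr2:71872974-71873223, plus strand (Pdk1) and at chr7:46845554-46845803, plus strand (Ldha) and at chr6:124769674-124769923, minus strand (Eno2).
Vegfa: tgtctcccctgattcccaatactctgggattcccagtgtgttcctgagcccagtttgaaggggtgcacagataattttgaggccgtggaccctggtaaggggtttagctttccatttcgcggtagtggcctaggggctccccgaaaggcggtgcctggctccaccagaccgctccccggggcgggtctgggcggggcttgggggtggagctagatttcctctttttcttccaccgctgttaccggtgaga
Pfkl: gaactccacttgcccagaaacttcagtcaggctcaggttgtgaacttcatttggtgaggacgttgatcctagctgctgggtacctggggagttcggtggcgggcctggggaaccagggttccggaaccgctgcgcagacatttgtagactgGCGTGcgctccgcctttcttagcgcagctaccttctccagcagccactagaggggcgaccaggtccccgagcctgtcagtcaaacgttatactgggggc
Hk2: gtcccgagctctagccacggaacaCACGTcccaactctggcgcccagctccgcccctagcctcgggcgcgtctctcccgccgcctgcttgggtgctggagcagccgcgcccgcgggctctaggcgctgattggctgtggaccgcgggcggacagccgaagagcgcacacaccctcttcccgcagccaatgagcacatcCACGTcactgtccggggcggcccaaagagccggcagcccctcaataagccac
Pdk1: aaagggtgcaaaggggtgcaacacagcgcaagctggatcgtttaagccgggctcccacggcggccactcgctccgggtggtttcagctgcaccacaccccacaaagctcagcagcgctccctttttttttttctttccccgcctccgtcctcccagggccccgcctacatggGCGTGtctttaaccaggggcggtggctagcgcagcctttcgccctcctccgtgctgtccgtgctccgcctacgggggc
Ldha: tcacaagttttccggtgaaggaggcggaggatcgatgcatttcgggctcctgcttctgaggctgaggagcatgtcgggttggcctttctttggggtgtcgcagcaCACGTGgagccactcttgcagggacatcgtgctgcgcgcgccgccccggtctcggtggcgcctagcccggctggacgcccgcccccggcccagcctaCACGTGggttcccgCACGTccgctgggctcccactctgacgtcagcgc
Eno2: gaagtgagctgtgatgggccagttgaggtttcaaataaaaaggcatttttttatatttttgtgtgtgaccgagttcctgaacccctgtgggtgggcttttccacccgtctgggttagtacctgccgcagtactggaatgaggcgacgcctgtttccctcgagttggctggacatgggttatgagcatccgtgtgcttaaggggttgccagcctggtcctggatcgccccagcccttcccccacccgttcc
The core motif occurred in the windows of Pfkl, Hk2, Pdk1 and Ldha and not in those of Vegfa and Eno2. In Ldha it lay at 5 positions, 4 of them within CACGTG, which holds the core on both strands and is also the E-box read by other factors. Among the 33 of 35 genes with a window in the table (Ndrg1 and Slc2a3 have none there), 26 held the core in the first-listed window, or 78.8%, against 38.6% of 27025 windows of the same length over all genes. The windows of the 33 genes were also richer in G and C, 62.0% against 53.0%, and the core holds a CpG. These matches describe letters in these windows only.

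Signals ranged widely between the genes, and because probes differ in brightness only levels of the same gene are compared. Levels are log2 signals after background correction and quantile normalisation, where a difference of 1 is a 2-fold change. On the 11 arrays of cultured cells, 40.8% to 49.9% of probes and 24 to 28 of the 30 genes were detected. On the in vivo arrays these were 26.2% and 26.7% of probes and 20 and 18 genes, for iNSC-In vivo and NSC-In vivo. The lowest detected level was 6.63 and 6.56 on these arrays and 4.60 to 5.08 elsewhere, so a gene not detected in vivo has only an upper bound there, which is higher than in culture. The MEF and ESC values were deposited with more decimals than the others, and that difference cannot be told apart from their group. The ESC NPC arrays carried pluripotency markers, with all 5 of the list detected (Pou5f1 at 9.84 and Sall4 at 11.14, means of 3 arrays), and did not detect Olig2. The MEF array detected all 5 fibroblast markers and also all 6 neural stem cell markers, with Fabp7 at 9.33. In both in vivo arrays Sox2, Nes, Fabp7 and Olig2 were not detected.

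**Figure D1:**
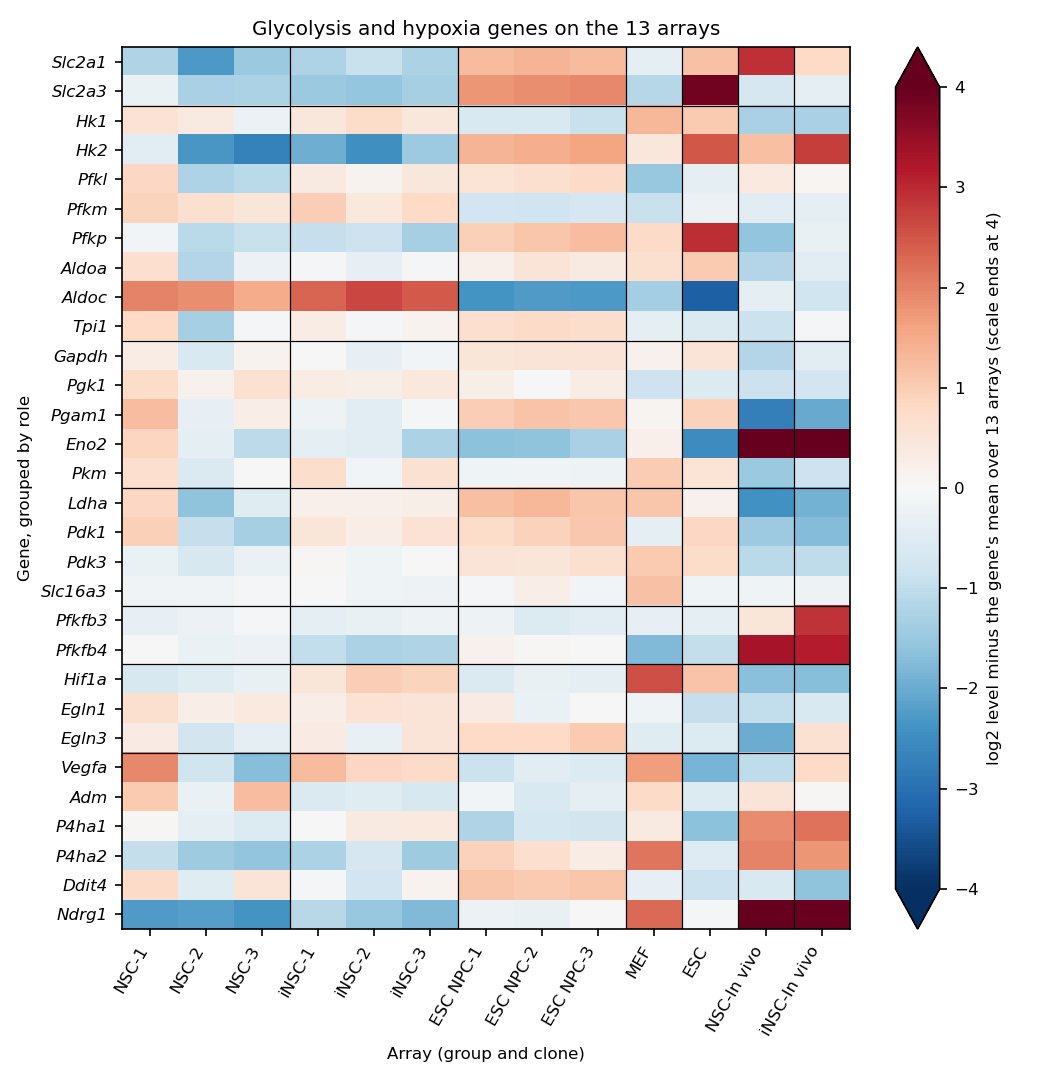
Levels of the 30 tested genes (rows, grouped by role) on the 13 arrays (columns), as the log2 level minus the mean of the gene over all arrays, with the colour scale ending at 4 in either direction. Aldoc was high in the 6 NSC and iNSC arrays, Slc2a1, Slc2a3 and Hk2 were high in ESC NPC and ESC, and Ndrg1 and Eno2 were highest in vivo.

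The arrays of the 3 NSC clones differed widely from each other in these genes. Vegfa, the angiogenic growth factor and a classical HIF target, read 10.63 in clone 1, 7.92 in clone 2 and 7.01 in clone 3. Pdk1, the kinase that shuts pyruvate dehydrogenase, read 8.41, 6.54 and 6.14. Clone 1 was the high array for both. Hk2, the inducible hexokinase, read 9.0, 7.09 and 6.74, and Pfkl, the liver-type phosphofructokinase, read 11.36, 9.28 and 9.44. Ldha, the lactate dehydrogenase subunit favoured in glycolytic cells, read 12.45, 10.01 and 11.12, and Eno2, the neuronal enolase, 7.87, 6.65 and 5.98. Each of these 6 genes was at least 2-fold higher in clone 1 than in either other clone, which holds for 20.0% of the 30 genes and for 0.22% of all genes, or 24 of 10923. No member stood at least 2-fold above both others in clone 2 or clone 3, although 55 and 129 of all genes did.

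Clone 1 was high along most of the pathway. It was the highest NSC clone in 25 of 30 genes (83.3%, against 25.6% of all genes), and clone 2 was the lowest in 17. It was highest for both glucose transporters, all 8 enzymes from hexokinase to triose phosphate isomerase and all 5 from GAPDH to pyruvate kinase. The median difference of clone 1 from the mean of the other 2 clones was 0.62 over the 30 genes and -0.01 over all genes. Tpi1, triose phosphate isomerase, read 13.25, 11.13 and 12.39, and Aldoa, the widespread aldolase, 11.50, 9.65 and 10.59. For these, clone 3 lay between the other clones. The range over the 3 clones reached 1 or more in 15 of 30 genes (50%), against 6.96% of all genes. Hif1a did not share this order, at 5.23, 5.41 and 5.57, and neither did Ndrg1, which no NSC clone detected. The remaining exceptions were Adm, highest in clone 3, and Slc16a3 and Pfkfb3, which no NSC clone detected. The 30 genes are not independent of each other, and no test was made of this order. With median scaling it was also 25 of 30, against 28% of all genes. Under quantile normalisation the background step and the offset leave the order between arrays unchanged, so those settings could not alter this count. The deposited values gave the same 25 of 30 and 25.6% of all genes, and are no separate check.

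A further list of 24 hypoxia-induced genes was chosen with earlier results of these data known, so it is no independent check. Of its 20 tested genes, 15 were highest in NSC clone 1, against 25.6% of all genes. Car12, Cited2, Hmox1 and Insig2 were not, and Mxi1 read 7.79 in both clone 1 and clone 2. Car9, the carbonic anhydrase used as a marker of hypoxic cells, read 7.19 in clone 1, 4.32 in clone 2 and 5.10 in clone 3. Fam162a, a mitochondrial HIF target, read 11.56, 9.85 and 10.09. Mgarp, a mitochondrial protein that neurons induce under hypoxia, had the largest excess of clone 1 over both other clones among all genes, at 8.28, 4.70 and 4.84, and was chosen after its values were seen. Serpina3n, a protease inhibitor of reactive astrocytes, read 8.62, 5.98 and 5.97, and Igfbp5, a growth factor binding protein, read 11.48, 9.92 and 10. Like Mgarp, both are outside the hypoxia-induced list. They were among the 24 of all genes at least 2-fold higher in clone 1 than in both other clones, and were likewise chosen afterwards. Among the NSC arrays, that of clone 1 had the highest share of probes detected (44.0%, against 42.8% and 42.7%). It also had the highest median signal (107.7, against 106.0 and 107.2). The part of these array differences in the clone 1 pattern was not tested. The oligodendrocyte genes Mbp (9.72, 8.76 and 5.62) and Mag (8.08, 7.10 and 4.61) also differed between the clones and were highest in clone 1, while Mobp and Mog were not detected in any. The summed level of Mbp, Mag and Mobp ran from 94 to 1132 over the NSC clones. Of 5 astrocyte markers, all detected in NSC, Gfap (8.11, 7.32 and 6.88) and Aldh1l1 (9.5, 8.9 and 9.21) were highest in clone 1. Aqp4 (10.2, 10.57 and 10.4), Gja1 (13.36, 13.77 and 13.33) and S100b (5.22, 5.41 and 5.32) were highest in clone 2. The endothelial gene Flt1 read 5.73, 4.25 and 5.16, and none of 4 microglia markers was detected. Their part in the result was not tested.

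The iNSC and ESC NPC clones were more alike. The median standard deviation over the 30 genes was 0.522 for the NSC arrays, 0.180 for iNSC and 0.135 for ESC NPC, against 0.168, 0.152 and 0.103 over all genes. Vegfa read 10, 9.55 and 9.5 in the iNSC clones and 7.86, 8.28 and 8.16 in the ESC NPC clones. All 3 iNSC clones lay between NSC clone 1 and the other 2 NSC clones. The MEF array, at 10.38, lay near NSC clone 1, and the ESC array, at 6.87, was the lowest of the 13.

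**Figure D2:**
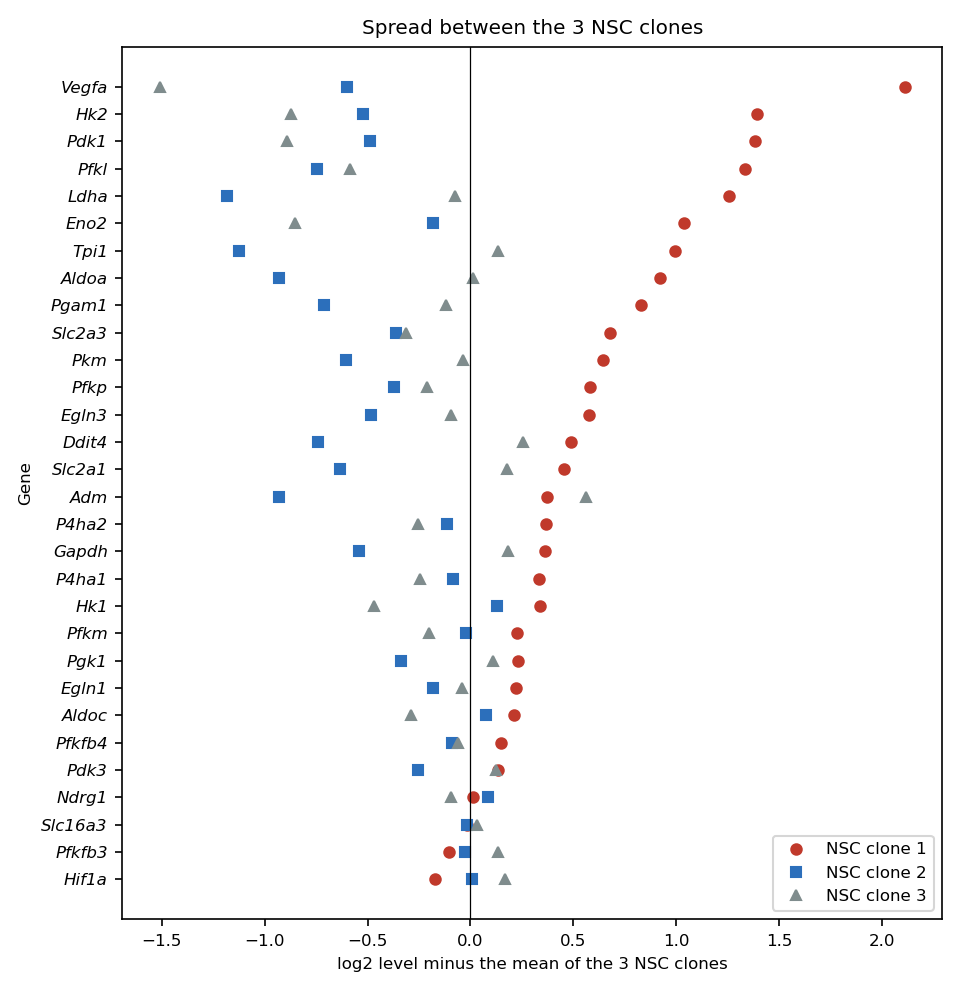
Each of the 30 genes in the 3 NSC clones, as the log2 level minus the mean of the 3 clones, ordered by how far clone 1 lies from the other clones. Clone 1 lies furthest right in 25 of 30 genes, with Vegfa at the top, and Hif1a at the bottom.

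Comparing iNSC with NSC asks how far induced cells match neural stem cells in these pathways. With one limma fit over all 7 groups and Benjamini-Hochberg adjustment over all genes, 5 of 30 genes passed an adjusted p of 0.05 (16.7%), 3 higher and 2 lower in iNSC. Of all genes 19.5% passed, 10.2% higher and 9.37% lower. The share was thus near that of all genes. The median difference was 0.15 over the 30 genes and 0.01 over all genes.

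Hif1a, the oxygen-regulated subunit of HIF, read 6.36, 6.87 and 6.76 in the iNSC clones and 5.23, 5.41 and 5.57 in the NSC clones. The groups did not overlap, and the difference was 1.26 ± 0.15 (log2, SE of the fit, 3 against 3 arrays, limma adjusted p = 0.000445). Its prolyl hydroxylases did not pass, with Egln1 at 0.01 ± 0.17 and Egln3, itself a HIF target, at 0.44 ± 0.28. Aldoc, the brain aldolase expressed by astrocytes and neural stem cells, read 13.17, 13.54 and 13.32 against 12.84, 12.70 and 12.34 and was higher in iNSC by 0.72 ± 0.15 (adjusted p = 0.00793). Ndrg1, a stress- and hypoxia-responsive gene, read 5.54, 5.14 and 4.89 in iNSC and was not detected in any NSC clone, which made it at least 1.21-fold higher (adjusted p = 0.0059). Pfkfb4, a bifunctional enzyme that sets the level of an activator of phosphofructokinase, read 6.12, 5.85 and 5.89 against 7.09, 6.85 and 6.88, and was lower in iNSC by 1.98-fold (adjusted p = 0.000311). Adm, the vasodilator peptide adrenomedullin, read 5.98, 4.68 and 6.17 in NSC, detected in 2 of the 3 clones, and was detected in no iNSC clone, which made it at least 1.58-fold lower there (adjusted p = 0.0303). The Adm call was lost when any iNSC clone, NSC clone 1, NSC clone 3 or ESC NPC clone 3 was left out (adjusted p 0.0535 to 0.102).

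The spread between the NSC clones bore on the other genes. Vegfa was 1.17 ± 0.74 higher in iNSC on the log2 scale with an adjusted p of 0.335 and a 95% interval from -0.50 to 2.84. Intervals of Pdk1 (-0.22 to 1.95), Ldha (-0.46 to 1.70) and Hk2 (-1.29 to 1.03) were also wide, so differences of 2-fold were not detectable there. Without NSC clone 1, 9 genes passed, 8 of them higher in iNSC, while 15.7% of all genes passed. Vegfa then stood at 2.22 (adjusted p = 0.00126), Pdk1 at 1.56 (0.000668), Pfkl at 1.48 (0.000211), Ldha at 1.25 (0.0179) and P4ha1, a collagen prolyl hydroxylase, at 0.72 (0.0342), all higher in iNSC than in the 2 remaining clones. Without NSC clone 2, Pgam1 (-0.98, adjusted p = 0.0251) and Ddit4 (-0.87, adjusted p = 0.0335) passed as lower in iNSC. With the clone number as a block over NSC and iNSC alone, a setting chosen after seeing the data, Pdk3 (0.34, adjusted p = 0.0321) and Ddit4 (-0.50, adjusted p = 0.017) passed in addition.

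Of the genes outside the 35, none of 6 tested HIF regulators passed by limma, and 1 of them, Arnt2, had an unadjusted limma p under 0.05. Of 20 other hypoxia-induced genes, 3 were higher in iNSC and 1 was lower, with Stc2, a secreted glycoprotein, higher by 1.32 ± 0.28, Plin2, a lipid droplet coat protein, higher by 1.24 ± 0.21, and Nrn1, a neurite growth protein, at least 3.03-fold lower. Among 12 other genes of glycolysis and pyruvate metabolism 1 passed: Pdk4, the starvation-induced pyruvate dehydrogenase kinase, was not detected in iNSC and at least 2.29-fold lower. Of 4 pentose phosphate genes 2 were lower, with Pgls at -0.57 and Taldo1 at -0.36 on the log2 scale.

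ESC NPC were higher than NSC in both glucose transporters and Hk2, and lower in Aldoc and Pfkm. Of 30 genes, 17 passed (56.7%, against 57.3% of all genes), 11 higher and 6 lower (27.7% and 29.6% of all genes), and the median difference was 0.58 against -0.02 over all genes. With median scaling the split was 8 higher and 8 lower, and without NSC clone 1 it was 16 higher and 3 lower, with 52.2% of all genes called.

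Both glucose transporters were higher in ESC NPC. Slc2a1, which encodes the widespread transporter GLUT1, read 11.95, 12.05 and 11.95 in ESC NPC and 9.49, 8.40 and 9.21 in NSC, a difference of 2.95 ± 0.25 (adjusted p = 8.4e-06). Slc2a3, which encodes the high-affinity GLUT3, read 10.86, 10.95 and 11.02 against 8.83, 7.79 and 7.84, a difference of 2.79 ± 0.24 (adjusted p = 1.12e-05). The ESC NPC clones were tightly grouped and lay above every NSC clone in each case.

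The hexokinases moved in opposite directions. Hk2 read 10.80, 10.87 and 11.01 in ESC NPC against 9.0, 7.09 and 6.74 in NSC, higher by 3.28 ± 0.51 (adjusted p = 0.000458). Hk1, the housekeeping hexokinase of brain, read 4.92, 4.92 and 4.66 against 6.11, 5.90 and 5.30, lower by 1.92-fold (adjusted p = 0.00264). The phosphofructokinases divided in the same manner. Pfkp, the platelet-type subunit, read 6.91, 7.04 and 7.17 against 5.83, 4.88 and 5.04 (higher by 1.79 ± 0.24, adjusted p = 0.000172), while Pfkm, the muscle-type subunit, read 9.72, 9.70 and 9.82 against 11.40, 11.15 and 10.97 (lower by 2.70-fold, adjusted p = 5.49e-05). Pfkl was 1.15 ± 0.46 higher with an adjusted p of 0.056, and passed at 1.82 (adjusted p = 1.52e-05) without NSC clone 1. The other Pfkp probe with signal differed by 0.84 and the second bright Pfkm probe by -1.60, in the same directions.

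Aldoc showed the largest difference of the 30 genes. It read 8.45, 8.60 and 8.55 in ESC NPC against 12.84, 12.70 and 12.34 in NSC, 17.1-fold lower (log2 -4.09 ± 0.15, adjusted p = 3.89e-08). Aldoa read 11.03, 11.32 and 11.19 against 11.50, 9.65 and 10.59 and did not pass (0.60 ± 0.37, adjusted p = 0.2). Eno2 was lower by 2.52-fold (adjusted p = 0.0237), a call lost without NSC clone 1 (-0.82, adjusted p = 0.0514) and without ESC NPC clone 1 or 2 (adjusted p = 0.0703 and 0.0669). Gapdh was 0.56 ± 0.21 higher (adjusted p = 0.0421), and lost its call under 10 alternative settings.

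Further down the pathway, Ldha read 12.81, 12.94 and 12.73 in ESC NPC, above every NSC clone, with a difference of 1.63 ± 0.48 (adjusted p = 0.0155) that became 2.26 without NSC clone 1. Pdk3 read 7.81, 7.77 and 7.94 against 7.04, 6.65 and 7.03, higher by 0.93 ± 0.13 (adjusted p = 0.000191). Pdk1 read 8.18, 8.38 and 8.52, and NSC clone 1, at 8.41, overlapped this range. Its difference of 1.33 ± 0.48 (adjusted p = 0.0393) lost its call when any clone other than NSC clone 1 was left out, and was 2.02 without that clone. Among hypoxia-induced genes, Ndrg1 read 6.41, 6.36 and 6.63 and was at least 2.94-fold higher than in NSC (adjusted p = 4.67e-06). P4ha2, a collagen prolyl hydroxylase, read 6.93, 6.69 and 6.30 against 5.06, 4.58 and 4.44, of which 1 was detected, and was higher by 1.95 ± 0.24 (adjusted p = 0.000109). Its relative P4ha1 ran the other way, at 5.5, 6.0 and 5.96 against 6.74, 6.32 and 6.16 (1.5-fold lower, adjusted p = 0.0258), a call lost without NSC clone 1 or ESC NPC clone 1 (adjusted p = 0.0918 and 0.0971).

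The prolyl hydroxylase Egln3 read 8.97, 8.96 and 9.22 against 8.48, 7.42 and 7.81, higher by 1.14 ± 0.28 (adjusted p = 0.00621), a call lost with median scaling (0.63, adjusted p = 0.0978). Egln1, the main oxygen sensor among them, read 5.55, 4.94 and 5.20 against 5.86, 5.46 and 5.60 and did not pass (adjusted p = 0.0674). Adm was at least 1.73-fold lower, a call lost without NSC clone 1 or 3 or ESC NPC clone 2 or 3 (adjusted p 0.0638 to 0.0915). Hif1a did not differ beyond its spread, at 5.30, 5.57 and 5.5 against 5.23, 5.41 and 5.57 (0.06 ± 0.15, adjusted p = 0.782).

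In the other hypoxia-induced list 5 of 20 genes were higher and 7 lower in ESC NPC than in NSC. Ppp1r3c, a glycogen-targeting phosphatase subunit, differed by -2.72, Stc2 by 1.85 and Nrn1 by -1.46 on the log2 scale. Of 12 other glycolysis and pyruvate genes 3 were higher and 4 lower, among them Eno3, the muscle enolase (2.40 ± 0.15 higher), Pfkfb2 (log2 -1.92) and Pdk4 (at least 2.5-fold lower). Of 6 HIF regulators, Arnt2, a neural partner of HIF, was at least 2.85-fold lower, Vhl, which targets HIF for degradation, was lower (log2 -0.99), and Arnt, the widespread partner, was at least 1.02-fold higher. Of 4 pentose phosphate genes 1 was higher and 1 lower.

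**Figure D3:**
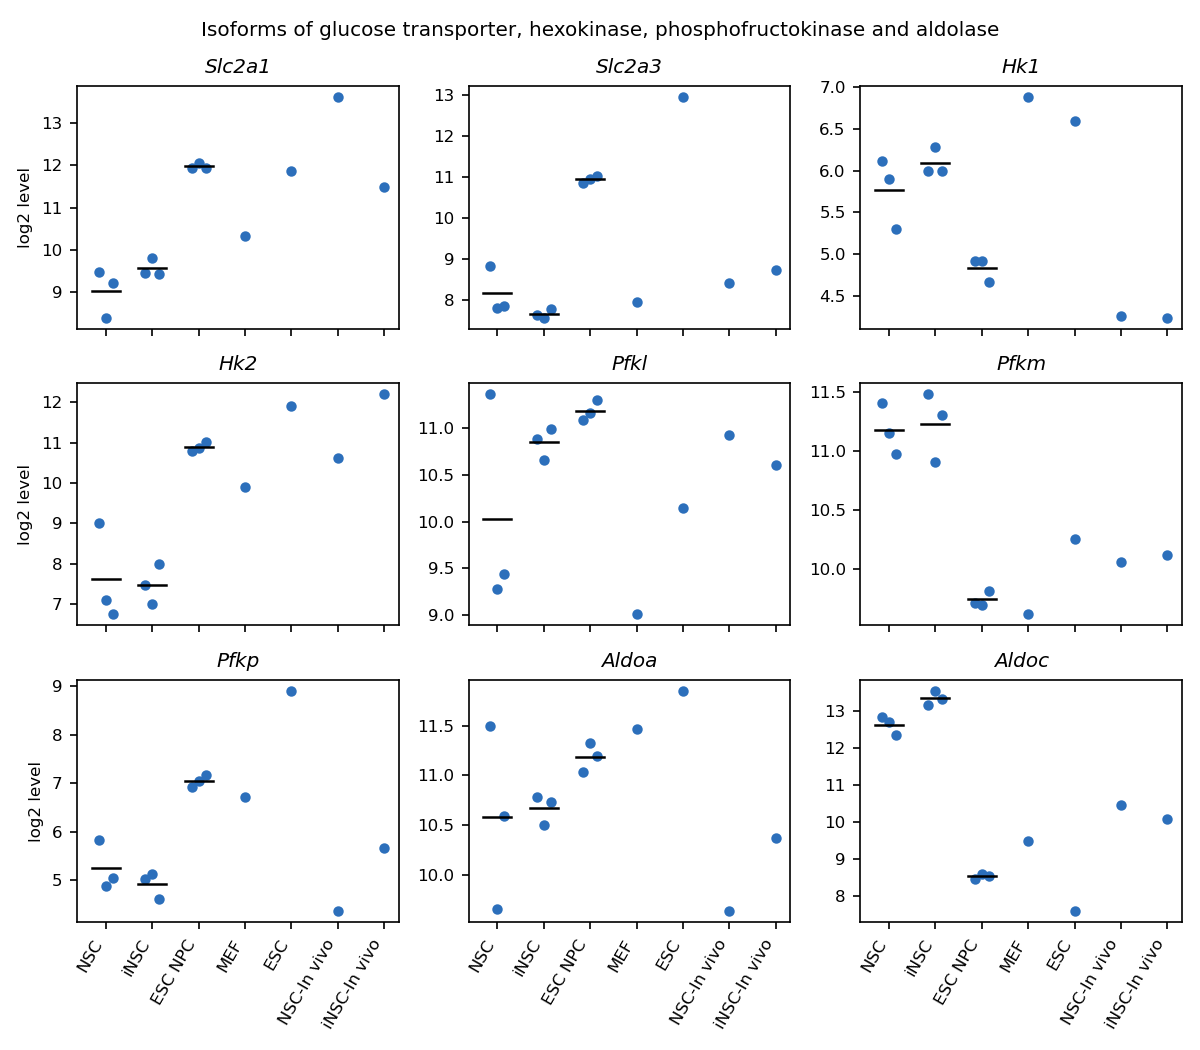
Log2 level of each isoform on every array (points), by group, with the mean of 3 clones as a bar, each panel with its own axis. ESC NPC lie above NSC and iNSC for Slc2a1, Slc2a3, Hk2 and Pfkp and below them for Hk1, Pfkm and Aldoc.

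The comparison of iNSC with ESC NPC shares the ESC NPC arrays with the one above. Of 30 genes, 16 passed (53.3%, against 60.3% of all genes), 5 higher and 11 lower in iNSC (31.5% and 28.8% of all genes), or 8 and 9 with median scaling. Aldoc read 13.17, 13.54 and 13.32 in iNSC, 28.2-fold above ESC NPC (log2 4.82 ± 0.15, adjusted p = 1.26e-08). Hk1 (6.0, 6.28 and 6.0 in iNSC, 1.26 ± 0.20 higher, adjusted p = 0.000393), Pfkm (11.48, 10.91 and 11.30, 1.49 ± 0.16 higher, adjusted p = 3.74e-05) and Hif1a (1.2 ± 0.15 higher, adjusted p = 0.000105) were also higher in iNSC, as was P4ha1 by 1.13 ± 0.19.

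Lower in iNSC were Hk2, at 7.47, 6.99 and 7.98 (10.6-fold, adjusted p = 0.000323), Slc2a3, at 7.62, 7.56 and 7.76 (9.81-fold, adjusted p = 3.33e-06), and Slc2a1, at 9.46, 9.82 and 9.42 (5.34-fold, adjusted p = 2.57e-05). Pfkp, at 5.02, 5.12 and 4.61, was 4.35-fold lower (adjusted p = 5e-05). None of these iNSC clones overlapped an ESC NPC clone. Pfkfb4, P4ha2, Ndrg1, Pgam1, Ddit4, Pdk3 and Gapdh were lower by 1.5-fold to 3.36-fold. Ddit4 encodes a stress-induced inhibitor of growth signalling. Vegfa was 1.58 ± 0.74 higher in iNSC, with no overlap between the groups and an adjusted p of 0.0928. The Gapdh call was lost without any one of the ESC NPC clones or iNSC clone 2, and those of Pdk3 (-0.19) and Pgam1 (-0.82) with median scaling. In a fit of these 2 groups alone, which leaves out the spread of the NSC clones, 25 genes passed (and 63% of all genes), Vegfa (adjusted p = 0.000104) and Ldha (log2 -1.01, adjusted p = 4.19e-05) among them.

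In the other lists, 7 hypoxia-induced genes of 20 were higher in iNSC and 4 lower, with Ppp1r3c at 3.2 ± 0.23, Bhlhe40, a HIF-induced repressor, at 1.57 ± 0.30 and Higd1a, a mitochondrial protein, at 1.48 ± 0.29. Of 12 glycolysis and pyruvate genes 4 were higher and 3 lower, and of 6 HIF regulators 2 were higher (Arnt2 at least 2.34-fold, Vhl by 1.22 ± 0.17) and 1 lower. Of 4 pentose phosphate genes 2 were lower.

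Against the MEF array, iNSC were higher in Aldoc and lower in Ndrg1, P4ha2 and Hif1a. The spread of the single MEF array is unknown and was taken from the clones. Of 30 genes, 14 passed (46.7%, against 49.8% of all genes), 5 higher and 9 lower in iNSC (27.9% and 21.9% of all genes). MEF read 9.48 for Aldoc, 14.6-fold below iNSC (log2 3.87 ± 0.21, adjusted p = 5.9e-07), and 9.62 for Pfkm, 3.04-fold below. Pgk1 was not detected in MEF and was at least 1.9-fold higher in iNSC. Pfkfb4 was higher by 0.60 (adjusted p = 0.0107), a call lost with median scaling (0.46, adjusted p = 0.0625) and without background correction (0.21, adjusted p = 0.0519). Ndrg1 read 8.92 in MEF, 13.3-fold above iNSC (adjusted p = 1.38e-06), P4ha2 8.16, 9.60-fold above (adjusted p = 4.89e-05), and Hif1a 8.47, 3.50-fold above (adjusted p = 0.000107). MEF was the highest of all arrays for Hif1a. Pfkp, Pdk3 and Hk2 were lower in iNSC by 3.48-fold, 2.11-fold and 5.32-fold, the last lost with median scaling (log2 -1.84, adjusted p = 0.0664). Slc16a3, the lactate exporter MCT4, was detected in MEF alone, at 5.61. It entered the tests only through that array, so its place among the 9 lower calls is no result. Its other probes, detected on no array, differed by 0.01 and 0.29 in the opposite direction. Pfkl, Adm and Hk1 lost their calls when most single clones of iNSC or ESC NPC were left out (Pfkl and Adm in all 6 cases, Hk1 in 5).

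Of 20 other hypoxia-induced genes, 6 were higher in iNSC than in MEF and 5 lower. Lox, the collagen cross-linking enzyme, read 11.84 in MEF and was at least 119-fold lower in iNSC, where it was not detected. Angptl4, a lipase inhibitor, read 9.80 in MEF and differed by -4.07 ± 0.67 (log2). Nrn1 was at least 4.35-fold lower. Of the HIF regulators 2 of 6 were higher and 1 lower, of the glycolysis and pyruvate genes 3 of 12 were higher, and of the pentose phosphate genes 3 of 4 were higher.

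ESC NPC differed from the single ESC array in 12 of 30 genes (40.0%, against 44.5% of all genes), 8 higher and 4 lower (22.1% and 22.5% of all genes), or 5 and 5 with median scaling. The ESC array read 12.95 for Slc2a3, 4.03-fold above ESC NPC (adjusted p = 0.00122), 8.90 for Pfkp, 3.64-fold above (adjusted p = 0.00171), 6.59 for Hk1, 3.38-fold above (adjusted p = 0.000767), and 7.01 for Hif1a, 2.92-fold above (adjusted p = 0.000353). ESC had the highest Slc2a3 and Pfkp of all arrays. Slc2a1, at 11.88, and Hk2, at 11.91, did not pass (0.10 ± 0.35 and -1.02 ± 0.72). Higher in ESC NPC were Ddit4 (9.06 in ESC, 1.95 ± 0.45, adjusted p = 0.0066), Egln3 (7.63, 1.42 ± 0.39, adjusted p = 0.016), P4ha2 (5.49, 1.15 ± 0.34, adjusted p = 0.0219), Pfkfb4 (6.15, 1.02 ± 0.16, adjusted p = 0.000694) and Aldoc (7.59, 0.94 ± 0.21, adjusted p = 0.00487). Egln1 and Pgk1 were at least 1.13-fold and 1.24-fold higher, since ESC did not detect them. With median scaling the calls of Egln3 (1.13, adjusted p = 0.0544), Pgk1 (0.66, adjusted p = 0.0584) and P4ha1 (0.68, adjusted p = 0.103) were lost. P4ha1 (0.76, adjusted p = 0.0462) also lost its call when any of 5 clones was left out, P4ha2 without ESC NPC clone 1 or 2 (adjusted p = 0.0567 and 0.051), and Pgk1 without ESC NPC clone 1 or 3 (adjusted p = 0.0586 and 0.0623). In a fit of these 2 groups alone 21 genes passed, and 55.7% of all genes.

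In the companion lists, 6 hypoxia-induced genes of 20 were higher in ESC NPC than in ESC and 6 lower, with Ppp1r3c at least 12.2-fold higher, Ak4, a mitochondrial adenylate kinase, at -2.68 ± 0.27 and Angptl4 at -2.23 ± 0.67 (log2). Of 12 glycolysis and pyruvate genes 3 were higher and 4 lower, of 6 HIF regulators 1 was higher and 2 lower, and of 4 pentose phosphate genes 1 was higher, Pgls at 2.28 ± 0.22, and 1 lower.

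**Figure D4:**
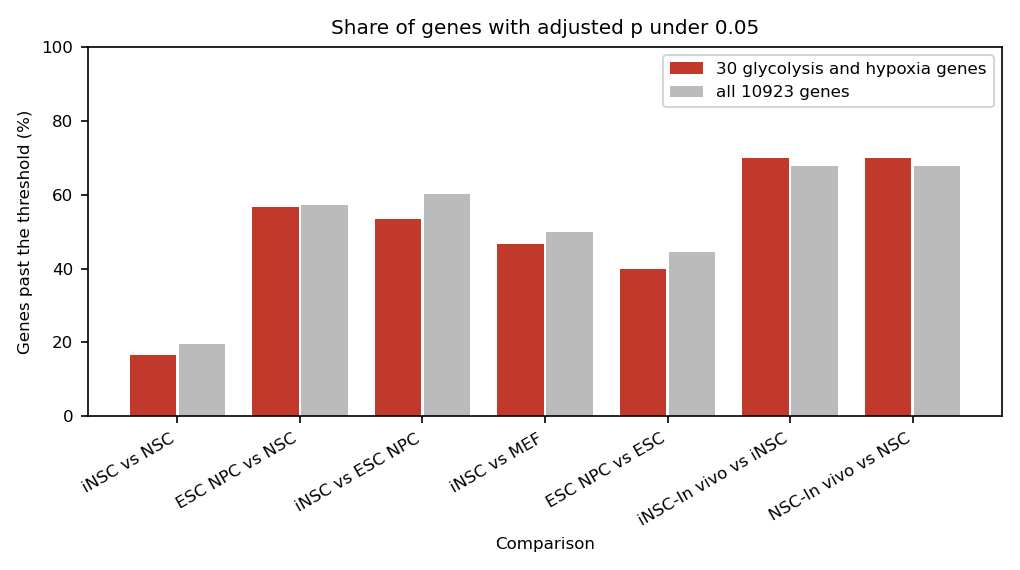
Percent of genes with a limma adjusted p under 0.05 in each comparison, for the 30 genes and for all 10923 genes. In all 7 comparisons the share among the 30 genes is close to that of all genes, from 16.7% against 19.5% for iNSC against NSC to 70.0% against 67.9% for iNSC-In vivo against iNSC.

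Both in vivo arrays stood far from the cultured clones. Of 30 genes 21 passed in each comparison (70.0%), 9 higher and 12 lower for iNSC-In vivo against iNSC and 8 higher and 13 lower for NSC-In vivo against NSC. Of all genes 67.9% passed in the first, 33.6% higher and 34.3% lower, and 67.8% in the second, 33.8% higher and 34.0% lower. Each rests on a single in vivo array. The higher calls include Pfkfb3 in both, which entered the tests only through the iNSC-In vivo array. In these bulk samples fewer cells of a type and less RNA per cell cannot be told apart, nor can a change within cells and a change in which cells were present. The summed level of 3 measured oligodendrocyte markers was 19751 (NSC-In vivo) and 9586 (iNSC-In vivo), against 58 to 1132 in culture. That of 4 microglia markers was 2171 and 5342 against 78 to 95, and that of 3 endothelial and blood markers 20565 and 2732 against 63 to 193. The 4 neuron markers summed to 1995 and 1096 against 89 to 631, with Syt1 and Tubb3 not detected in vivo. The listed markers Mog (oligodendrocyte), Snap25 (neuron) and Kl (choroid plexus) had a probe that no array detected, in vivo included, and are not among the measured markers. Of 2 measured choroid plexus markers, Ttr was detected on both in vivo arrays (11.17 and 10.34) and Folr1 on neither. ESC NPC in culture detected both, with Ttr at a mean of 7.52. The 5 fibroblast markers summed to 1005 (NSC-In vivo) and 1489 (iNSC-In vivo), with Col1a1 not detected in vivo. They summed to 135 to 145 in NSC, 102 to 109 in iNSC, 1056 to 1167 in ESC NPC and 21030 in MEF. Thy1 (9.08 and 9.75) was the largest part of both in vivo sums. It was also detected in NSC and ESC NPC, so these sums do not mark fibroblasts alone. Of the 6 neural stem cell markers, Slc1a3 read 13.88 and 13.84, Egfr was detected on iNSC-In vivo alone, and Sox2, Nes, Fabp7 and Olig2 were detected on neither. The part of these cell types in the results below was not tested.

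The genes that rose in vivo were led by Ndrg1, which is also a gene of myelinating cells. It read 12.18 on NSC-In vivo and was not detected in NSC, at least 154-fold higher (adjusted p = 4.12e-09). On iNSC-In vivo it read 10.61, 42.7-fold above iNSC (adjusted p = 3.54e-08), and its second probe differed by 7.16 and 5.04. Eno2, the enolase of mature neurons, read 11.99 and 11.46, 35.7-fold above NSC (log2 5.16 ± 0.61, adjusted p = 4.51e-05) and 34.9-fold above iNSC (5.13 ± 0.61, adjusted p = 4.56e-05). Pfkfb4 read 10.39 and 10.24, higher by 3.45 ± 0.16 (adjusted p = 7.17e-08) and 4.29 ± 0.16 (adjusted p = 1.61e-08). Both in vivo arrays lay above all 11 others for these 3 genes.

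Hk2 read 10.63 on the array of NSC-In vivo and 12.21 on that of iNSC-In vivo, a difference of 3.02 ± 0.72 (adjusted p = 0.00442) and 4.73 ± 0.72 (adjusted p = 0.000268). Slc2a1, which is abundant in brain endothelium, read 13.62 and 11.49, higher by 4.59 ± 0.35 (adjusted p = 2.05e-06) and 1.92 ± 0.35 (adjusted p = 0.000775). The collagen prolyl hydroxylases rose in both, P4ha2 by 3.30 ± 0.34 and 2.88 ± 0.34 and P4ha1 by 2.18 ± 0.27 and 1.92 ± 0.27. Of the 5 fibroblast markers, Dcn (7.95 with NSC and 8.68 with iNSC), Thy1 (9.08 and 9.75) and Col1a2 (6.66 and 7.19) were also above their levels in both cultures. Pdgfrb was detected on NSC-In vivo alone, at 6.57, and Col1a1 on neither in vivo array. The part of these markers was not tested. Pfkfb3, the inducible partner of Pfkfb4, was detected on iNSC-In vivo alone, at 7.78, and since it entered the tests only through that array no test is given for it. Slc2a3 was 1.08 ± 0.34 higher on iNSC-In vivo (adjusted p = 0.0189) and did not pass on NSC-In vivo (0.25 ± 0.34).

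Of the 13 tested enzymes from hexokinase to pyruvate kinase, 8 were lower for NSC-In vivo and 6 for iNSC-In vivo, while Hk2 and Eno2 were higher on both. Of 12 lower calls on iNSC-In vivo 7 were genes not detected there, and of 13 on NSC-In vivo 8. Aldoc read 10.46 and 10.07 in vivo, 4.49-fold below NSC (adjusted p = 1.05e-05) and 9.68-fold below iNSC (adjusted p = 5.83e-07). Ldha read 9.18 and 9.73, 4.03-fold (adjusted p = 0.0244) and 4.23-fold (adjusted p = 0.0207) lower. Pkm, pyruvate kinase, was lower by 2.84-fold and 2.35-fold and Pfkm by 2.17-fold and 2.15-fold, though the dimmest Pfkm probe differed by 0.66 and 0.07. Gapdh passed on NSC-In vivo (2.19-fold lower, adjusted p = 0.00679) and not on iNSC-In vivo, and Ddit4 passed on iNSC-In vivo (2.57-fold lower, adjusted p = 0.0231) and not on NSC-In vivo. The difference between the in vivo comparisons did not pass for either (adjusted p = 0.185 and 0.623), but that of Gapdh passed without NSC clone 2 (1.08, adjusted p = 0.00732). With median scaling Gapdh was also lower on iNSC-In vivo (-1.7, adjusted p = 0.000535) and Ddit4 on NSC-In vivo (-2.71, adjusted p = 0.000362), and the replicate block called Ddit4 there too (adjusted p = 0.0379). On iNSC-In vivo the calls of Pkm and Ddit4 were lost without iNSC clone 1 or 3 (adjusted p 0.05 to 0.0689). Fitted with NSC alone, 15 genes passed on NSC-In vivo (and 59% of all genes), and the calls of Hk2, Pfkp, Gapdh, Pkm, Ldha and Pdk3 were lost (adjusted p 0.06 to 0.157).

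Pgam1, phosphoglycerate mutase, was not detected in vivo and was at least 5.03-fold below NSC and 3.12-fold below iNSC. Pdk3 was at least 1.27-fold and 1.54-fold lower, and Pdk1 at least 2.41-fold below iNSC (adjusted p = 0.0173). Hif1a was not detected on either array. Its iNSC mean of 6.66 lies barely above the lowest level detected on iNSC-In vivo, 6.63, so only a 1.02-fold fall from iNSC can be given. Its limma adjusted p (5.15e-06) comes from a reading not above background and does not measure that bound. No bound can be given on the fall of Hif1a from NSC. Hk1, Pgk1 and Egln1 passed as lower in both comparisons, as did Pfkp on NSC-In vivo (a call lost without iNSC clone 1 or any ESC NPC clone), but their culture levels lie under the lowest level detected in vivo, so no fold can be given. Egln3 was at least 2.54-fold below NSC on NSC-In vivo (adjusted p = 0.00339). Tpi1 and Aldoa did not pass, though both passed as lower without NSC clone 2 on NSC-In vivo and with median scaling on both arrays, and a dimmer Tpi1 probe differed by -2.49 and -2.47. Vegfa did not pass (-0.81 ± 1.05 and -0.18 ± 1.05), and its second detected probe ran the other way, at 0.66 and 1.11.

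**Figure D5:**
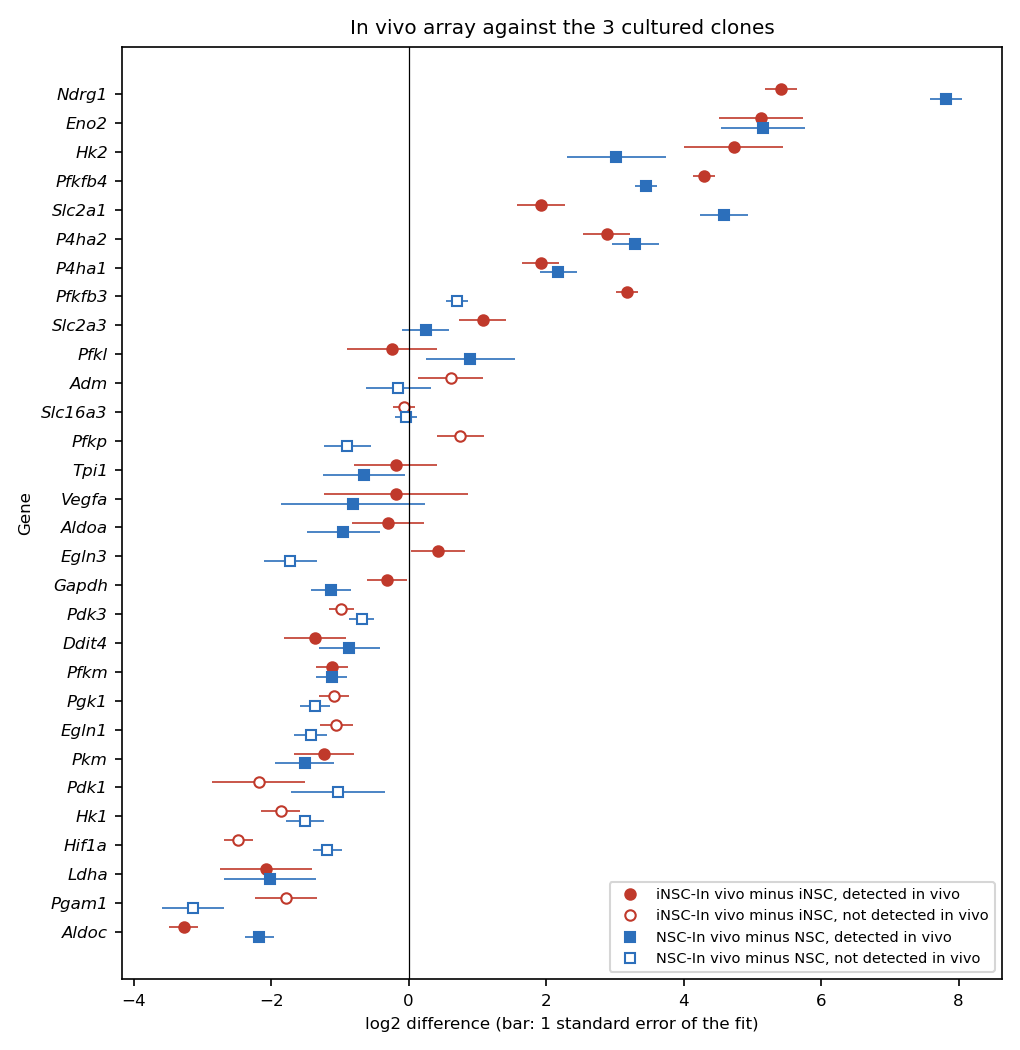
Log2 difference of each in vivo array from the 3 cultured clones of its kind for the 30 genes, with 1 standard error of the fit as a bar, and open symbols for genes not detected in vivo. Ndrg1 and Eno2 lie furthest to the right in both, and Hk1, Hif1a, Pgam1, Pdk1 and Pdk3 are open in both.

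The scaling matters for these comparisons. Quantile normalisation gives every array the same distribution, and with median scaling the median of all genes moved to -0.79 for iNSC-In vivo against iNSC and -0.87 for NSC-In vivo against NSC. It moved to -0.19 for ESC NPC against NSC, 0.17 for iNSC against ESC NPC and 0.31 for iNSC against MEF. The split then became 6 higher and 17 lower for iNSC-In vivo and 5 higher and 18 lower for NSC-In vivo. Ndrg1 (4.12 and 6.54 for iNSC and NSC), Eno2 (3.83 and 3.64), Pfkfb4 (2.85 and 1.86) and P4ha2 (1.27 and 1.59) stayed higher and past the threshold, and so did Hk2 for iNSC (3.27) and Slc2a1 for NSC (2.85). The calls of Hk2 for NSC (1.49, adjusted p = 0.109), Slc2a1 for iNSC (0.47, adjusted p = 0.253) and P4ha1 for iNSC and NSC (0.17 and 0.30) were lost, as was that of Pfkp for NSC (-0.83, adjusted p = 0.0909). Slc2a3 turned to -0.73 for iNSC and to -1.72 for NSC (adjusted p = 0.108 and 0.00209), and Egln3 to -1.41 for iNSC (adjusted p = 0.0139). Newly past the threshold as lower were Tpi1 (-1.62 for iNSC and -2.09 for NSC) and Aldoa (-1.89 and -2.74). Gapdh and Pfkl (-1.78, adjusted p = 0.0282) joined them for iNSC, and Ddit4, Pdk1 (-2.32, adjusted p = 0.0171) and Vegfa (-2.74, adjusted p = 0.04) for NSC.

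The difference between the in vivo shifts of iNSC and of NSC was itself tested, and 8 of 30 genes passed, 4 in each direction, against 27.6% of all genes, or 6 with median scaling against 16.5%. Slc2a1 rose less with iNSC than with NSC (difference -2.66 ± 0.49, adjusted p = 0.00347). Pfkfb4 gave a difference of 0.83 ± 0.22 (adjusted p = 0.0218). Its in vivo levels were close, 10.24 with iNSC and 10.39 with NSC, so the term rests mostly on its lower level in cultured iNSC (log2 -0.98 against NSC). Ndrg1 was at least 154-fold higher in vivo with NSC and 42.7-fold with iNSC, and the exact size of its term rests on NSC readings not above background. Pfkfb3 is among the 8 but was detected on the iNSC-In vivo array alone, and its term is no result. The endothelial and blood markers (20565 on NSC-In vivo, 2732 on iNSC-In vivo) and the oligodendrocyte markers (19751 and 9586) were higher on NSC-In vivo, as Slc2a1 and Ndrg1 were, and the microglia markers (2171 and 5342) were higher on iNSC-In vivo. Their part was not tested.

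Between the in vivo arrays alone, 1 against 1 with no test, 7 of 30 genes differed at least 2-fold (18.9% of all genes did, 9.44% higher and 9.5% lower on iNSC-In vivo). Hk2 (12.21 against 10.63) and Vegfa (9.51 against 7.71) were higher on iNSC-In vivo, and Slc2a1 (11.49 against 13.62) and Ndrg1 (10.61 against 12.18) were higher on NSC-In vivo. Egln3 (8.77 on iNSC-In vivo) was not detected on NSC-In vivo, and was at least 4.63-fold higher on iNSC-In vivo. Pfkfb3 (7.78), also among the 7, was detected on iNSC-In vivo and on no other array. It entered the set only through that array, so its place among the 7 is no result. Pfkp was detected on neither.

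The companion lists moved in both directions in vivo. Epas1, the HIF subunit enriched in endothelium, was not detected in NSC or iNSC and was at least 8.83-fold higher on NSC-In vivo and 4.05-fold higher on iNSC-In vivo, and it was the 1 HIF regulator of 6 to rise, while 3 fell in each. Of 20 other hypoxia-induced genes, 4 rose and 7 fell on NSC-In vivo, and 2 rose and 9 fell on iNSC-In vivo. Angptl4 rose by 3.85 ± 0.67 and 2.90 ± 0.67. Car9 rose by 2.38 ± 0.83 on NSC-In vivo and was at least 5.01-fold higher on iNSC-In vivo. Fam162a was at least 15.3-fold and 16-fold lower, and Ak4 at least 1.65-fold and 1.23-fold lower. Of 12 other glycolysis and pyruvate genes, 3 rose and 7 fell on NSC-In vivo, and 3 rose and 5 fell on iNSC-In vivo. Hk3, the hexokinase of myeloid cells, read 8.69 (NSC-In vivo) and 10.87 (iNSC-In vivo) and was detected on no cultured array. It entered the tests only through the in vivo arrays, so its place among the 3 that rose in each is no result. Pdhb, a pyruvate dehydrogenase subunit, was at least 5.05-fold and 4.52-fold lower. Dld, a subunit it shares its complex with, was at least 2.53-fold and 2.5-fold lower. Of 4 pentose phosphate genes 1 rose and 1 fell on NSC-In vivo, and 2 rose on iNSC-In vivo.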

How the data were processed

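Total RNA of 13 samples was labelled as biotin cRNA and hybridised to Illumina mouse bead arrays, per the labels' protocols. The deposited table, non-normalised, holds an average signal intensity and a detection p-value for each probe and array, per the file headers. The submitters' processing notes name BeadStudio 3.2, RMA and lumi, with no order. The authors' deposited normalised log2 values were used as an alternative only. Of 25697 probes, 23978 have 1 gene symbol in the platform annotation and 1719 were left unnamed, and 16 could not be matched to a current gene ID.

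Background was corrected with normexp, with the control mean and spread inferred from the detection p-values (offset 16). Arrays were then quantile normalised and log2 transformed. Probes detected (p under 0.01) on at least 1 array were kept, and the probe with the highest mean stood for its gene. One limma fit (version 3.58.1, R 4.3.3, statmod 1.5.0) of all 7 groups had 6 residual degrees of freedom, with eBayes and two-sided p-values adjusted by Benjamini-Hochberg over 10923 genes. All adjusted p-values in the text come from it unless a setting is named. The script was tested on simulated data. Where a group was detected on none of its arrays, the fold is a bound: the mean of the brighter group against the mean, per array, of the lowest detected level or the probe's own level, whichever is higher. The number of arrays limits the precision.

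The genes and companion lists were chosen with earlier results of these data known. All 35 genes are accounted for. Values on every array are given for the largest called differences each way, for isoforms and for Hif1a, and up to 3 genes per companion list are named. Deviations from the group means correlated at 0.209, 0.503 and 0.277 between same-numbered NSC and iNSC clones, a pairing which the labels do not state. Between different-numbered NSC and iNSC clones they ran from -0.403 to 0.236. The highest, NSC clone 3 with iNSC clone 1, lay above the same-numbered pair of clone 1. Same-numbered NSC and ESC NPC clones gave -0.0407, -0.00891 and -0.0208. No chip identifier was given, so no chip block was fitted. Probe sequences were not used, and cross-hybridisation was not checked. Promoters and motif shares come from RefSeq, GRCm38.p6. Alternatives covered background, scaling, the deposited values, filters, probe choice, prior, blocks, subsets of groups and each clone left out.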

Additional observations from a re-analysis of the deposited data

Results flagged for a closer look

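In 8 of the 30 genes the difference between the in vivo array and the cultured clones itself differed between iNSC and NSC, by the interaction term of the limma fit, with 1 in vivo array on each side. Of all genes 27.6% passed, so the share among the 30 was near that of all genes, and with median scaling 6 passed against 16.5%. The term, iNSC minus NSC on the log2 scale, was -2.66 ± 0.49 for Slc2a1 (adjusted p = 0.00347), whose in vivo difference was 1.92 with iNSC and 4.59 with NSC. For Ndrg1 it was -2.40, computed with NSC readings not above background, so its size is not exact: the in vivo level was 42.7-fold higher with iNSC and at least 154-fold with NSC. Both genes were higher in vivo with either cell type, and by less with iNSC. Aldoc gave -1.11 ± 0.29 (adjusted p = 0.0207), lower in vivo in both and by more with iNSC. Its in vivo readings differed by only -0.39, and its level in cultured iNSC was higher than in NSC (log2 0.72), so the Aldoc term rests mostly on the cultures. Pfkfb3 gave 2.48, but it was detected on the iNSC-In vivo array alone and entered the tests only through it, so nothing rests on this value.

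Pfkfb4 gave 0.83 ± 0.22 (adjusted p = 0.0218), a call lost without background correction (adjusted p = 0.0535). Its in vivo readings differed by only -0.15, and its level in cultured iNSC was lower than in NSC (log2 -0.98), so the term rests mostly on the cultures. Egln3 gave 2.15 ± 0.56 (adjusted p = 0.0189), with 0.43 for iNSC and -1.72 for NSC, where it was not detected in vivo, and the call was lost with median scaling (adjusted p = 0.0784). Hif1a gave -1.30 ± 0.30 (adjusted p = 0.0116) and Pfkp 1.64 ± 0.48 (adjusted p = 0.0317). Neither of the last 2 was detected on either in vivo array. The in vivo readings differed by -0.04 for Hif1a, so its term restates the culture difference between iNSC and NSC (1.26) with the sign changed. It shows no difference in vivo. For Pfkp they differed by 1.3, so the Pfkp term rests mostly on readings not above background. The Pfkp call was lost with median scaling (adjusted p = 0.468), without background correction (0.0665), with the mean of its probes (0.101), with a larger offset (0.0601) and without iNSC clone 3, ESC NPC clone 2 or ESC NPC clone 3 (adjusted p 0.0502 to 0.0558). Without NSC clone 1, Pfkl (-1.80, adjusted p = 0.00109) and Pdk1 (-1.84, adjusted p = 0.00371) passed as well, and without NSC clone 2 Gapdh (1.08, adjusted p = 0.00732), Pgam1 (1.7, adjusted p = 0.0222) and Adm (1.22, adjusted p = 0.0105) did.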

How the results depend on the processing

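Fitted on the 2 groups compared alone, 25 genes passed for iNSC against ESC NPC (63% of all genes) and 21 for ESC NPC against ESC (55.7%), while 14 passed for ESC NPC against NSC (56.8%), 15 for NSC-In vivo (59%), 4 for iNSC against NSC (13.1%), 18 for iNSC against MEF (44.1%) and 22 for iNSC-In vivo (64.9%). With single clones left out, the count for iNSC against NSC ran from 4 to 9, the highest without NSC clone 1. It ran from 13 to 19 for ESC NPC against NSC, 15 to 22 for iNSC against ESC NPC, 11 to 15 for iNSC against MEF, 10 to 17 for ESC NPC against ESC, 19 to 22 for iNSC-In vivo, 20 to 25 for NSC-In vivo and 7 to 11 for the difference between these. Median scaling turned Slc2a3 to -0.73 on iNSC-In vivo and -1.72 on NSC-In vivo, and Egln3 to -1.41 on iNSC-In vivo. With no filter on dim probes another Slc16a3 probe, detected on no array, stood for the gene and gave 0.29 against MEF and 0.96 and 1.03 on iNSC-In vivo and NSC-In vivo. With a replicate block by clone number over NSC, iNSC and ESC NPC, 5 genes passed for iNSC against NSC, 20 for ESC NPC against NSC and 17 for iNSC against ESC NPC, and P4ha1 was lost for ESC NPC against ESC (adjusted p = 0.0705). With the replicate block over NSC and iNSC alone, chosen after seeing the data, 7 passed. Calls kept under every alternative numbered 4 of 5 for iNSC against NSC, 11 of 17 and 13 of 16 for the ESC NPC comparisons, 8 of 14 for MEF, 7 of 12 for ESC, and 16 of 21 and 12 of 21 for iNSC-In vivo and NSC-In vivo. The in vivo arrays, MEF and ESC had 1 array each, and levels below 6.56 could not be detected in vivo. The causes of these changes were not tested.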
